A study of Mus musculus with 477 samples.

Results

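The luminal cells of double-mutant mice were compared between pregnancy and the virgin state, in the distribution over single cells and in the summed reads. Of the 477 cells in the table, 53 were labelled pBr53L and 39 vBr53L, and these 92 cells share the name prefix SC7. Each label stood for 1 female mouse of 3 to 4 months, the pregnant one at day 12.5. Both mice carried MMTV-Cre, *Brca1* fl/fl, *Trp53* fl/+ and the ROSA mT/mG reporter on a mixed background of C57BL/6 and 129/Sv. The study's methods and its list of cells give *Trp53* fl/+, while a legend on flow cytometry of double-mutant glands gives *Trp53* fl/fl. MMTV-Cre is driven by a viral promoter active in mammary epithelium, and the reporter switches to membrane GFP where Cre has acted. Cells of the fourth mammary glands were depleted of lineage-positive cells, sorted as DAPI-, CD24Hi, CD29Lo and mGFP+, and captured singly on a microfluidic chip that yields full-length cDNA from each cell. With 1 mouse on each side, stage and mouse cannot be told apart, cells are not replicates, and no test between the groups was possible. Differences are therefore given by their size, their spread over cells and the values in the other 5 luminal mice. These were v53L and p53L (MMTV-Cre and *Trp53* fl/+, no *Brca1* deletion, prefix SC9) and vBrL with 2 pBrL mice (MMTV-Cre and *Brca1* fl/fl). They were females of the same age range and background with the ROSA mT/mG reporter, and the pregnant ones were also at day 12.5. The vBrL cells carry the prefix SC10 and the pBrL mice SC5 and SC6, so stage and name prefix cannot be told apart in that genotype.

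The mammary duct holds several kinds of luminal cell. Hormone sensing cells carry the receptors for estrogen, progesterone and prolactin and signal to their neighbours through factors such as amphiregulin and RANKL. Alveolar cells expand in pregnancy and, under prolactin acting through STAT5, become the secretory cells that make milk protein and milk fat. Interferons act through the JAK-STAT pathway and induce immunity-related GTPases, guanylate binding proteins and the genes of antigen presentation.

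The upstream sequences of 4 genes are shown because milk proteins and interferon-inducible GTPases, described below, differ in how often 1 of 2 short motifs was found there. The letters TTCNNNGAA are the core of STAT sites, and GAAANNGAA is the core of interferon response elements. Both were searched on both strands from 250 bases before to 50 bases after each gene start in the promoter table of RefSeq (GRCm38.p6), and no 9-base window held both motifs. Each sequence below gives the 250 bases before the start, and capitals mark the matches. *Csn2* (beta-casein) lies at chr5:87699426-87699675, *Glycam1* at chr15:103565082-103565331 and *Irgm1* at chr11:48871421-48871670, all on the minus strand. The *Igtp* sequence is at chr11:58199306-58199555 on the plus strand.
*Csn2*: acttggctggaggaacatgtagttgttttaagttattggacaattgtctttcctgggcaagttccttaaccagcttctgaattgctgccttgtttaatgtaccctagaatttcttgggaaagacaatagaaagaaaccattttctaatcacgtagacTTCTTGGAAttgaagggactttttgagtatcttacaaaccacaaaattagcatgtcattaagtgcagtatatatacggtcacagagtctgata
*Glycam1*: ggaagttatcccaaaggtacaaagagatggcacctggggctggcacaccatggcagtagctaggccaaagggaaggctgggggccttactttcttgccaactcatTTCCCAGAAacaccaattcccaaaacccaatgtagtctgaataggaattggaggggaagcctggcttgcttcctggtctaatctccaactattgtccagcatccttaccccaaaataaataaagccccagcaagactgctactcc
*Igtp*: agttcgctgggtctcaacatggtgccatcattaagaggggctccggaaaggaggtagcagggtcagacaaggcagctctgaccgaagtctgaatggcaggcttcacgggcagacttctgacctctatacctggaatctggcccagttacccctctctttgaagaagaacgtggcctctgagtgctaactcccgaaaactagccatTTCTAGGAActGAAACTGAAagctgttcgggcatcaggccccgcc
*Irgm1*: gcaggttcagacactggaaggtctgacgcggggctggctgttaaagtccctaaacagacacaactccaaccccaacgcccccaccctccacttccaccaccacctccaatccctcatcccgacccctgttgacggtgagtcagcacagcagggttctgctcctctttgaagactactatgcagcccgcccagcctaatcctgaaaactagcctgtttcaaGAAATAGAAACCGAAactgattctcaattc
The match in *Csn2* starts 93 bases before the gene start and the match in *Glycam1* 145 bases before it. In *Igtp* both motifs occur, starting 45 and 34 bases before the start, and in *Irgm1* a pair of overlapping GAAANNGAA matches starts 30 and 24 bases before it. Over all 27025 genes of the promoter table, 9.55% held TTCNNNGAA and 9.76% held GAAANNGAA. Of the 8 milk protein genes that matched the table, 4 held the first motif and 0 the second. Of the 10 interferon-inducible GTPases that matched, 6 held the first and 9 the second. Of 19 other interferon-stimulated genes 5 and 11 held them, and of 9 chemokines 0 and 2. The lists were not tested against each other. A match is a description of the letters and not a bound site.

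Depth was similar in both groups, at 728672 to 2898382 reads per cell in pBr53L and 442325 to 2589639 in vBr53L. After each cell was thinned to 100000 reads, where 1 read is worth 10 CPM (reads of the gene per 1e6 reads), a median of 3805 genes was detected in pBr53L and 3209 in vBr53L. The sorted cells carried the luminal markers. At least 9 of 10 were read in 52 of 53 pregnant and 32 of 39 virgin cells. Of 10 basal markers 3 reached 10 CPM, and their list sum was 163 CPM in pBr53L and 76.1 CPM in vBr53L. *Krt14*, a basal keratin, was read in 24 pregnant and 6 virgin cells, at 101.8 against 45.4 CPM, and 1 pregnant cell had 5 basal markers. Of the 3 that reached 10 CPM, 1 was at least 4-fold higher and 1 at least 4-fold lower. Without 1 pregnant cell described next, *Oxtr* was at 53.1 against 3.81 CPM and *Krt17* at 2.83 against 18.2 CPM. *Acta2*, under 10 CPM, was then at 0.965 against 5.79 CPM. The smooth muscle genes *Cnn1* and *Tagln* had 0 reads in both groups. One pregnant cell stood apart, with 10 of 14 immune cell markers and 5 of 10 luminal markers. It held 96.2% of the *Ptprc* reads and all *Adgre1* reads of its group, and no other cell of either group had 3 immune markers or more. It bears most on the class II genes, which are given with and without it. The targeted genes gave no check of the deletion, because exons outside the deleted ones are counted too. *Brca1* was read in 6 of 53 pregnant and 3 of 39 virgin cells, and *Trp53* in 40 and 19.

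Of 8852 genes that reached 10 CPM in either sum, 923 (10.4%) were at least 4-fold higher in pBr53L and 704 (7.95%) at least 4-fold lower. The median over these genes was -0.10 on the log2 scale. Without the immune marked cell 866 genes were higher and 710 lower, and that cell held over 50% of the pregnant reads for 52 of the 923. Many of them rested on few cells. For 275 of the 923 higher genes 1 pregnant cell held over 50% of the group's reads, and for 393 of the 704 lower genes 1 virgin cell did. The 12 leading genes in each direction were taken among genes of at least 50 CPM that were read in at least 50% of the cells of the higher group and stayed past 4-fold without its highest cell. Ratios are given with 95% counting intervals, and shares of cells, counted in the thinned cells, with exact 95% binomial intervals. Both cover counting error only, and copies made by PCR were counted as separate reads.

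**Figure D1:**
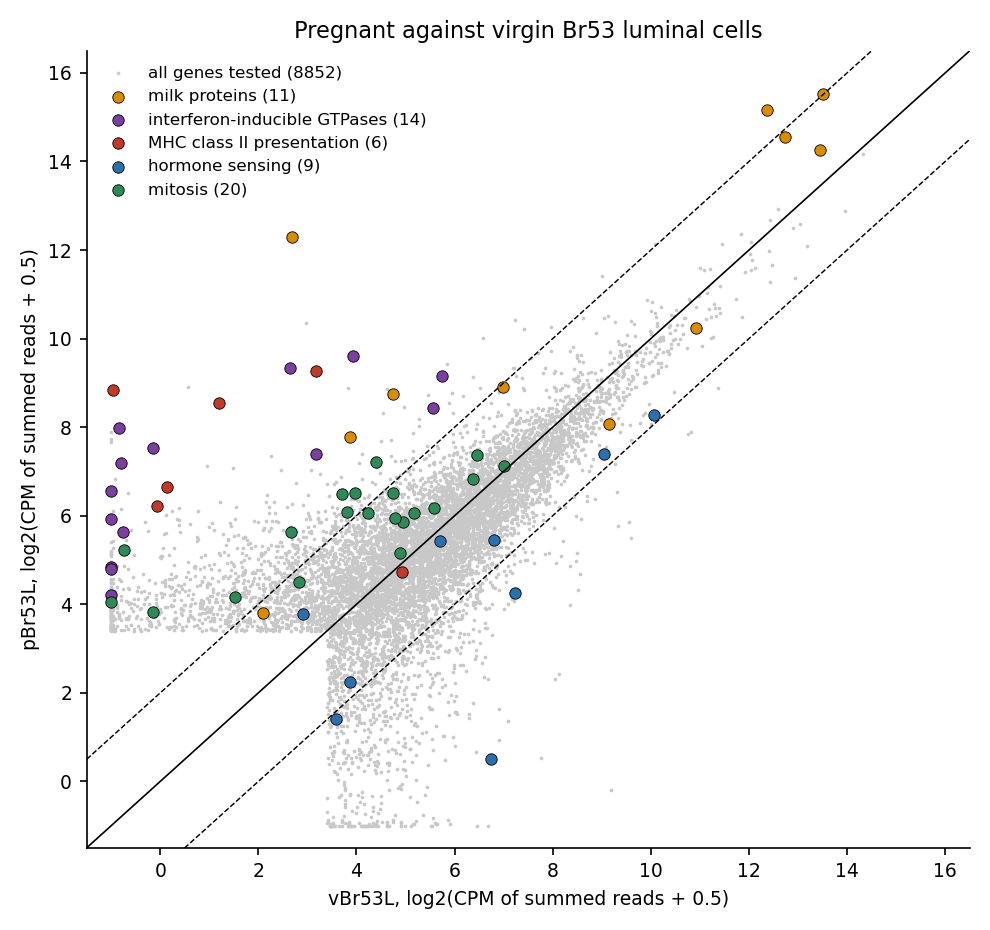
Each grey point is 1 of 8852 genes, with vBr53L on the x axis and pBr53L on the y axis, both as log2 CPM of summed reads with a small constant added. The solid line marks equal levels and the dashed lines a 4-fold difference. All 14 interferon-inducible GTPases and 5 of 6 MHC class II genes lie past the upper dashed line, and 3 of 9 hormone sensing genes lie past the lower one.

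Most milk protein genes were higher in the pregnant cells, and most pregnant cells took part. Of 11 milk protein genes, 5 were at least 4-fold higher and 0 lower, with a median log2 ratio of 1.91. *Mfge8* and *Muc1* of this list went the other way by less than 4-fold. Without the immune marked cell they were at 1230 against 1927 CPM and 272 against 564 CPM. *Csn2* was read in every cell of both groups. Its level over the pregnant cells ranged from 7.91 to 112789 CPM with a median of 46174, and over the virgin cells from 0.772 to 94778 CPM with a median of 6392. The distributions overlapped, and the pregnant cell was the higher one in 86.8% of all pairs of a pregnant with a virgin cell. Its sum was 46823 CPM in pBr53L and 11616 CPM in vBr53L, a ratio of 4.03 (4.02 to 4.04), and 1 virgin cell held 29% of the virgin reads. *Csn1s2a*, another casein, had a ratio of 6.88, while *Csn3*, kappa-casein, had 19699 against 11145 CPM and did not reach 4-fold. Caseins together took 12.7% of the summed reads in pBr53L and 3.48% in vBr53L.

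*Glycam1*, which encodes a mucin-like milk protein, separated the groups more widely than the caseins did. It was read in 88.7% of pregnant cells (77 to 95.7) and in 7.69% of virgin cells (1.62 to 20.9). Its median over pregnant cells was 2809 CPM, and no virgin cell exceeded 135 CPM. The sums were 5044 and 5.96 CPM, a ratio of 847 (768 to 936). *Wap*, whey acidic protein, had a ratio of 16.4 and *Lalba*, the alpha-lactalbumin subunit of lactose synthase, a ratio of 15.6. Each was read in 66% of pregnant cells, and *Csn1s2b*, the casein with the fewest reads, in 15.1%. *Lao1*, an amino acid oxidase of milk, had 480 against 0.985 CPM and was read in 50.9% of pregnant cells and in 1 virgin cell.

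The genes of milk fat followed. Of 22 milk lipid genes past 10 CPM, 8 were at least 4-fold higher and 0 lower, with a median log2 ratio of 1.48. *Cd36*, a fatty acid transporter, had a median of 1091 CPM over pregnant cells and was read in 88.7% of them. Only 1 virgin cell had a read after thinning, and a single cell held 99.8% of the virgin reads. The sums of 1314 and 7.31 CPM gave a ratio of 180 (165 to 197). *Fabp3*, a fatty acid binding protein, had a ratio of 12, and *Thrsp*, a regulator of lipid synthesis, a ratio of 10.8. *Olah*, the thioesterase that releases medium-chain fatty acids, had 59.7 CPM in pBr53L and 0 reads in vBr53L, and was at least 1354-fold higher against a floor of 3 reads over the virgin group. *Plin2*, a coat protein of lipid droplets, was read in all pregnant cells with a median of 4359 CPM, against 487 CPM in virgin cells. Not every gene of the pathway differed by 4-fold. *Fasn*, fatty acid synthase, had a ratio of 2.29 and *Acaca*, acetyl-CoA carboxylase, a ratio of 3.41, and *Scd1*, a desaturase, had a log2 ratio of -0.51. Across cells, the summed milk protein and milk lipid levels had a Spearman rho of 0.77 over 53 pregnant cells and 0.54 over 39 virgin cells. Both sums share the read total of the cell.

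**Figure D2:**
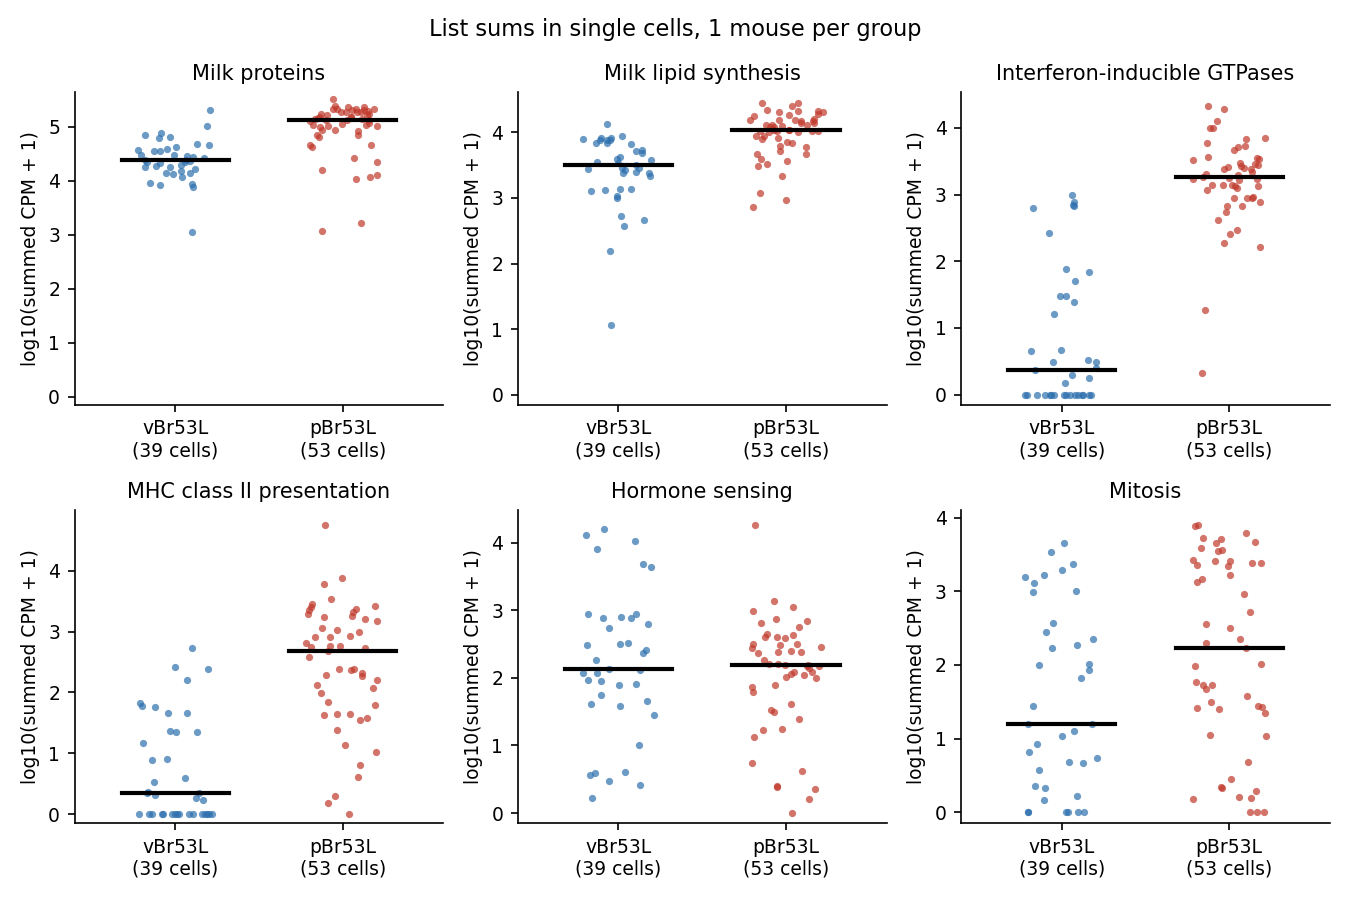
Each point is 1 cell, with the summed CPM of a gene list on the y axis as log10(CPM + 1), for 39 vBr53L and 53 pBr53L cells, and black bars are medians. The medians were 134045 against 23917 CPM for milk proteins and 1854 against 1.35 CPM for interferon-inducible GTPases in pBr53L and vBr53L, while those of the hormone sensing list were 152 and 134 CPM.

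Interferon-inducible GTPases lay far apart between the mice. These proteins defend cells against intracellular pathogens, in 2 families, the immunity-related GTPases and the guanylate binding proteins. All 14 that reached 10 CPM were at least 4-fold higher in pBr53L, with a median log2 ratio of 8.99 when genes without virgin reads are set at their bound. In cells thinned to 100000 reads this median was 5.96, against 7.14 for the MHC class II list. The summed level had quartiles of 892 and 3431 CPM over pregnant cells. Over virgin cells the upper quartile was 29.1 CPM and the highest cell 982 CPM, and 38 of 53 pregnant cells lay above that cell. Without the immune marked cell the pregnant sum was 3401 CPM, against 3369 CPM with it and 130 CPM in vBr53L.

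*Igtp* had 252 CPM in pBr53L and 4 reads in all of vBr53L, and was read in 50.9% of pregnant and 0% of virgin cells, where 0 of 39 allows a share of up to 7.69% when 3 cells are taken as the floor and 9.03% as the exact upper bound. *Iigp1* was spread more widely, with a read in 90.6% of pregnant cells (79.3 to 96.9) and in 12.8% of virgin cells (4.30 to 27.4). Its median over pregnant cells was 334 CPM, and its ratio was 53 (49.8 to 56.5). *Ifi47* had 646 against 5.72 CPM and *Irgm1* 184 against 0.397 CPM, with all virgin *Irgm1* reads in 1 cell. Among the guanylate binding proteins, *Gbp3* had 566 against 53.1 CPM, while *Gbp4* and *Gbp8* had 0 virgin reads and were at least 1356-fold and 2124-fold higher. The reads of close family members can be split between them by the counting, and *Igtp* overlaps *Irgm2* and *Gbp4* overlaps *Gbp8* in the annotation, so single values in these families are less certain than their sum.

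Most other interferon-stimulated genes were also higher. Of 21 past 10 CPM, 16 were at least 4-fold higher and 1 lower, with a median log2 ratio of 2.97. The median ran from 2.91 to 7.23 over the other settings, the upper end without the cells with 4 or more hormone sensing markers. *Irf1*, a transcription factor of the response, had 290 against 38.3 CPM. *Rtp4*, a chaperone of receptor transport, had 163 against 4.31 CPM, and *Oas1a*, a sensor of double-stranded RNA, was at least 2202-fold higher, at 97.1 CPM against 0 virgin reads. The gene that was lower was *Bst2*, which tethers budding viruses, with a log2 ratio of -4.80. It was read in 3 pregnant and 5 virgin cells.

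Antigen presentation differed by class. Of 14 genes of MHC class I presentation, 1 was at least 4-fold higher, the peptide transporter gene *Tap1*, and 0 were lower, with a median log2 ratio of 0.62. Of 6 genes of MHC class II presentation past 10 CPM, 5 were at least 4-fold higher, with a median log2 ratio of 7.36. The exception was *H2-DMb1*, at 26 against 29.7 CPM. *Cd74*, the invariant chain, was read in 81.1% of pregnant cells (68 to 90.6) and 15.4% of virgin cells (5.86 to 30.5), with a median of 182 CPM over pregnant cells. *H2-Aa*, a class II alpha chain, had 456 CPM in pBr53L and 1 read in vBr53L, a ratio of 31031 (5569 to 1225690). *H2-Ab1*, a class II beta chain, had 375 against 1.81 CPM.

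The immune marked cell took part in this difference. It held 55.6% of the *H2-Aa* reads, 35.8% of the *H2-Ab1* reads, 63% of the *H2-Eb1* reads and 25.7% of the *Cd74* reads of its group. Without it, 5 of 6 class II genes were still at least 4-fold higher, with a median log2 ratio of 6.2, and *H2-Ab1* was at 244 CPM. The pregnant sum of the class II list was then 1018 CPM instead of 1655 CPM, against 41.1 CPM in vBr53L. The median over the other 52 pregnant cells was 433 CPM and over virgin cells 1.21 CPM. *H2-Aa* stayed at 205 CPM and was read in 27 of these 52 cells, and *Cd74* stayed at 466 CPM. The vBrL mouse also had 1 immune marked cell, without which its class II sum went from 1077 to 28.6 CPM and its *H2-Ab1* level from 262 to 3.90 CPM. Over pregnant cells the GTPase and class II sums had a Spearman rho of 0.47, and 0.53 without the immune marked cell.

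Chemokines, which recruit leukocytes, had a median summed level of 567 CPM over pregnant and 205 CPM over virgin cells. Of 9 past 10 CPM, *Ccl2*, *Ccl20*, *Cxcl2*, *Cxcl9* and *Cxcl10* were at least 4-fold higher and *Cxcl15* was lower. Without the immune marked cell *Cxcl2* fell short of 4-fold, at 62.6 against 16.6 CPM, a log2 ratio of 1.91. *Cxcl2* was read in 32.1% of pregnant and 10.3% of virgin cells, and *Ccl2* in 30.2% and 5.13%. Without thinning these were 41.5% and 28.2% for *Cxcl2* and 49.1% and 10.3% for *Ccl2*. *Cxcl9* had 201 CPM in pBr53L and 0 virgin reads, at least 4565-fold higher, yet it was read in 4 of 53 pregnant cells and 1 cell held 60.2% of its reads. *Cxcl10* had 114 CPM against 2 virgin reads, a ratio of 3870 (1071 to 31961), and was read in 20.8% of pregnant cells. *Plk3*, a stress kinase that is in none of the lists, was another leading higher gene, at 139 against 1.43 CPM and read in 60.4% of pregnant cells.

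**Figure D3:**
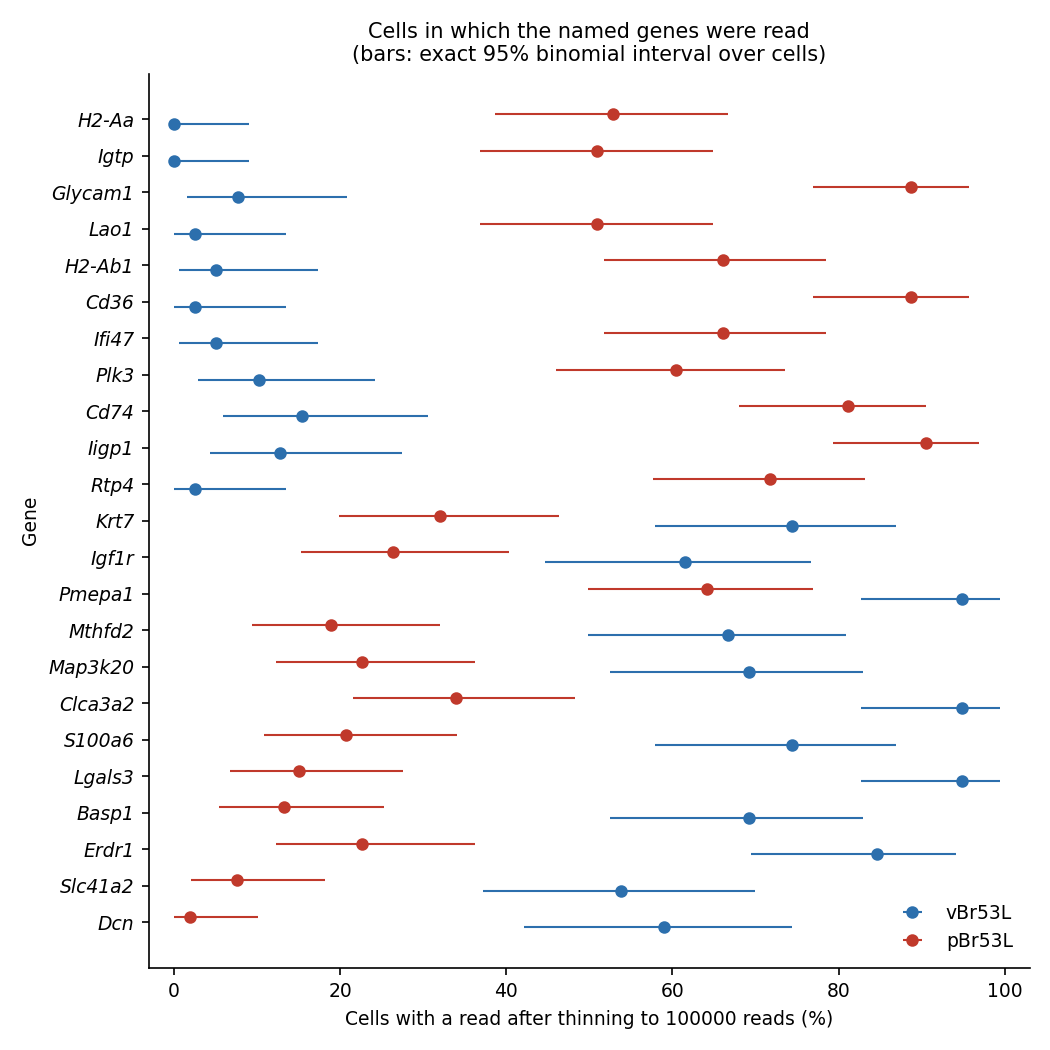
For each of 23 leading genes the x axis gives the percent of cells with a read after thinning to 100000 reads, red for pBr53L and blue for vBr53L, with exact 95% binomial intervals as bars. *Cd36* was read in 88.7% of pregnant and 2.56% of virgin cells, and *Lgals3* in 15.1% and 94.9%.

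Cells with hormone sensing markers made up a smaller share of the pregnant sample. Of 9 hormone sensing genes past 10 CPM, 0 were at least 4-fold higher and 3 lower, with a median log2 ratio of -1.74. *Areg*, amphiregulin, had a log2 ratio of -6.86 and was read in 1 pregnant and 15 virgin cells. *Cited1*, a coactivator of hormone receptors, had a log2 ratio of -3.01, and *Foxa1*, the pioneer factor of the estrogen receptor, a log2 ratio of -2.41 on reads from 1 pregnant and 2 virgin cells. *Prlr*, the prolactin receptor, was lower in the sum, at 167 against 525 CPM, but was read in 69.8% of pregnant and 76.9% of virgin cells. *Esr1*, the estrogen receptor, had 42.5 against 51.8 CPM.

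At least 4 of 11 hormone sensing markers were read in 4 of 53 pregnant cells, 7.55% (2.09 to 18.2), and in 16 of 39 virgin cells, 41% (25.6 to 57.9). The limit of 4 lies within a range of values, since 7 cells of each group had 1 marker fewer. At least 7 markers were read in 1 pregnant and 6 virgin cells. The 3 pregnant cells with 4 markers had list sums of 111 to 272 CPM and milk protein sums of 104205 CPM or more. A virgin cell with 5 markers, at 808 CPM, had the highest virgin milk protein sum, 204780 CPM. Reaching the limit therefore does not by itself mark a hormone sensing cell. One of the 4 pregnant cells had 9 markers and a list sum of 18393 CPM, above every virgin cell. It held 99.9% of the pregnant *Calca* reads, calcitonin, and 92.6% of the *Cited1* reads. In the 49 and 23 cells with fewer markers the milk genes kept their direction, with *Glycam1* at 5209 against 0.127 CPM.

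**Figure D4:**
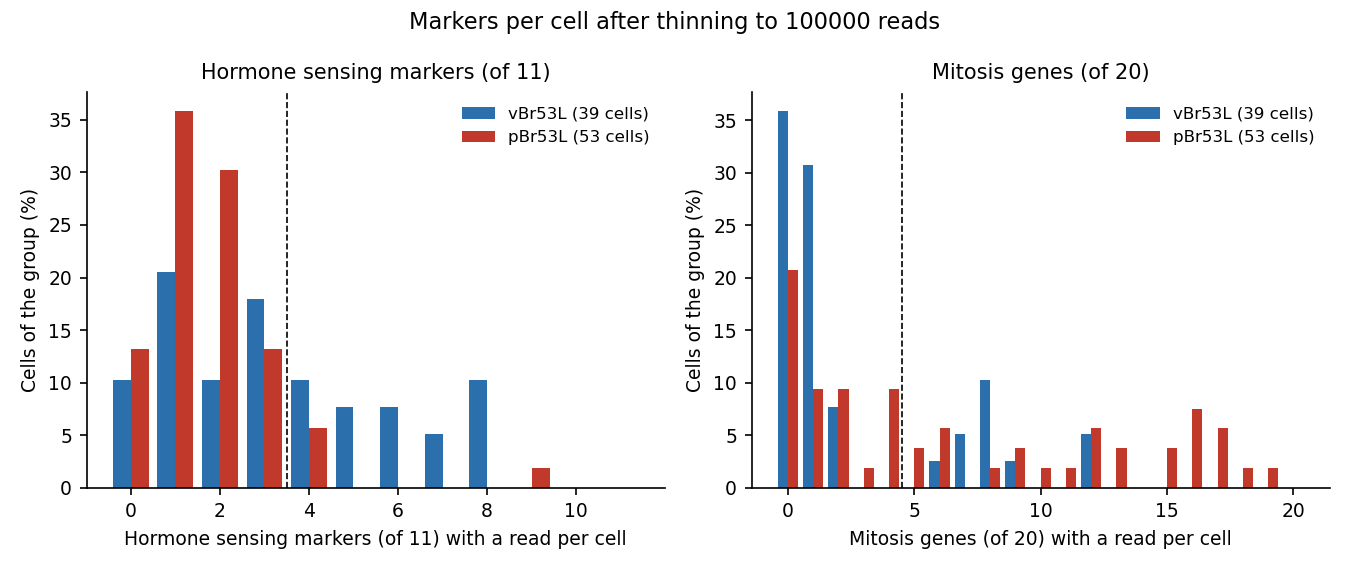
Bars give the percent of cells of each group, on the y axis, by the number of hormone sensing markers (left) or mitosis genes (right) with a read after thinning, on the x axis. The dashed lines mark the limits of 4 and 5, which 41% of vBr53L and 7.55% of pBr53L cells reach on the left, and 25.6% and 49.1% on the right.

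Mitosis genes were higher in the pregnant sum, and DNA replication genes were not. Of 20 mitosis genes, 9 were at least 4-fold higher and 0 lower, with a median log2 ratio of 1.83. *Ccnb1*, cyclin B1, had 36.9 against 0.103 CPM and was read in 32.1% of pregnant cells and 0% of virgin cells. *Aurka*, a spindle kinase, was at least 366-fold higher, at 16.1 CPM against 0 virgin reads, with 49% of its reads in 1 cell. *Mki67*, the usual marker of cycling cells, was at 138 and 128 CPM. At least 5 mitosis genes were read in 49.1% of pregnant cells (35.1 to 63.2) and in 25.6% of virgin cells (13 to 42.1), and these intervals overlap. Of 20 DNA replication genes, 0 were higher and 4 lower, among them *Ccne1*, *Cdc6* and *Chaf1b*, with a median log2 ratio of -1.43. At least 5 of them were read in 43.4% of pregnant and 43.6% of virgin cells, and without the cells that had at least 5 mitosis genes the list median was 0.16. Over pregnant cells the mitosis and milk protein sums had a Spearman rho of -0.41, and over virgin cells -0.01. The milk protein sum was 98556 CPM over the 26 pregnant cells with at least 5 mitosis genes and 166756 CPM over the other 27. Over virgin cells the order was the opposite, with 63017 CPM over the 10 such cells and 27031 CPM over the other 29. The virgin medians were closer, at 38201 and 21766 CPM, and 1 of the 10 cells was at 204780 CPM. The 26 pregnant cells included the immune marked cell, at 1653 CPM.

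The genes that were lower in pBr53L came from several families. *Dcn*, the matrix proteoglycan decorin, had the widest ratio of the leading lower genes, with a log2 ratio of -10.62 from 0.367 CPM in pBr53L and 579 CPM in vBr53L. It was read in 59% of virgin cells, but 1 cell held 46.2% of the reads, and without the hormone sensing marked cells the virgin level was 40.8 CPM. *Dcn* is a marker of fibroblasts and was the single fibroblast marker of 6 to reach 10 CPM. *Lgals3*, galectin-3, was more even. Its median was 479 CPM over virgin and 0 over pregnant cells, and it was read in 94.9% of virgin cells (82.7 to 99.4) and 15.1% of pregnant cells (6.75 to 27.6), a log2 ratio of -4.12. The immune marked cell held 48.5% of the pregnant reads, and without it the log2 ratio was -5.06. *Clca3a2*, a regulator of chloride channels, had the same virgin share, a virgin median of 445 CPM and a log2 ratio of -3.70. *S100a6*, a calcium-binding protein, had 25.2 against 375 CPM, and the luminal keratin *Krt7* 33.3 against 288 CPM, each read in 74.4% of virgin cells.

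Several growth factor receptors were lower. Of 11, *Fgfr1*, *Fgfr2*, *Fgfr3* and *Igf1r* were at least 4-fold lower and *Erbb4*, a neuregulin receptor, was higher, with a median log2 ratio of -1.24. *Igf1r*, the IGF1 receptor, had 15.7 against 136 CPM and was read in 26.4% of pregnant and 61.5% of virgin cells. *Fgfr2*, a fibroblast growth factor receptor, had 2.60 against 44.9 CPM, and *Fgfr3* rested on 3 virgin cells. The summed list had log2 ratios of -0.94 here, -1.33 in p53L against v53L, and -0.0021 and -0.22 in the 2 pBrL mice. The other leading lower genes were *Slc41a2*, a magnesium transporter (log2 ratio -6.03), *Erdr1* (-4.83), *Basp1*, a membrane-bound signalling protein (-4.38), *Map3k20*, a stress kinase (-3.36), *Mthfd2*, a mitochondrial folate enzyme (-3.16), and *Pmepa1*, an inhibitor of TGF-beta signalling (-3.15). *Erdr1* was read in 84.6% of virgin and 22.6% of pregnant cells. Cytosolic ribosomal protein genes were lower by a smaller step that was spread over the cells. Of 73, 0 were at least 4-fold lower and 1 higher, the median log2 ratio was -0.66, and 12 of 39 virgin cells had a summed level above every pregnant cell. The summed list had log2 ratios of -0.56 here, 0.14 in p53L, and 0.04 and 0.25 in the 2 pBrL mice. Its sum was 28369 CPM in vBr53L and 16804 to 22266 CPM in all other luminal mice, pBr53L among them.

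Immediate early genes had 3 of 17 at least 4-fold higher, *Atf3*, *Nr4a1* and *Zfp36*, and 0 lower. Their sum was 9697 CPM in pBr53L and 5699 CPM in vBr53L, against 7978 to 12085 CPM in the other 5 luminal mice. The log2 ratio of the sum was 0.77 here, -0.31 in p53L, and -0.15 and -0.03 in the 2 pBrL mice. Among secreted defense proteins *Pigr*, the receptor that carries IgA into milk, was read in 86.8% of pregnant and 28.2% of virgin cells with a ratio of 11.3, while the acute phase genes *Saa1* and *Saa2* had log2 ratios of -4.41 and -5.87, and as close copies can share reads. *Lcn2*, lipocalin-2, was read in every cell, with medians of 2149 CPM in pregnant and 6745 CPM in virgin cells. Of 16 regulators of progenitor and alveolar cells, 1 was higher, *Stat5b*, with a median log2 ratio of -0.06. *Elf5*, the alveolar transcription factor, had 456 against 170 CPM, and the progenitor marker *Kit* 154 against 119 CPM. Of 11 p53 target genes 0 were at least 4-fold lower and 1 was higher, *Sesn2*, with 72.2% of its reads in 1 cell. The median log2 ratio of this list was -1.14, while its summed level was 2154 against 2277 CPM. Genes of glycolysis and of protein folding in the ER had 0 past 4-fold in either direction.

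The other luminal mice were set beside these values to see which differences recur with pregnancy in other genotypes. Over the same 8852 genes, 888 (10%) were at least 4-fold higher in p53L than in v53L and 868 (9.81%) lower. Of the 923 genes higher in pBr53L, 212 (23%) were also among the higher genes there, which is 18.9% of the 1121 genes past 4-fold and 10 CPM in that pair, and 100 were past 4-fold in the opposite direction. Of the 704 lower genes, 195 (27.7%) were shared, 15.2% of 1284, and 41 were opposite. In the other 5 mice, all 3 pregnant mice lay above both virgin mice for 1366 genes (15.4%) and below both for 1267 (14.3%). This held, in the same direction, for 206 of the 923 higher genes (22.3%) and 180 of the 704 lower genes (25.6%). The stage test over these 5 mice, by edgeR's quasi-likelihood test, called 0 of 12871 genes (0%) at an adjusted p of 0.05, with 1155 at an unadjusted p under 0.05, while DESeq2 called 865.

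Milk genes recurred in every pregnant mouse. The log2 ratio of the summed milk protein list was 1.84 in the double mutant, 2.03 in p53L, and 1.78 and 1.42 in the 2 pBrL mice, which share the vBrL mouse. *Glycam1* was at 6209 CPM in p53L and at 3614 and 2717 CPM in the pBrL mice, against 0 in v53L and 15.5 CPM in vBrL. *Cd36* was at 1788, 1763 and 1057 CPM in those pregnant mice, against 0.471 and 72.7 CPM. All 8 milk lipid genes past 4-fold showed no overlap between stages in the other 5 mice, against 22.3% of all genes past 4-fold higher.

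The hormone sensing list was lower in each pregnant mouse, with log2 ratios of -1.77, -2.97, -4.03 and -3.59 in the same order. In pBr53L 1 cell held 59.4% of the list's reads, and without it the sum went from 604 to 249.9 CPM and the log2 ratio to -3.04, or to -2.58 when the vBr53L cell with the most list reads was left out too. Cells with at least 4 markers made up 8.33% of p53L, 0% and 2.63% of the pBrL mice, 65% of v53L and 37.1% of vBrL. Of the 12 leading higher genes 5 showed no overlap in the other mice, in the same direction. Of the 12 leading lower genes 9 did, the exceptions being *Basp1*, *Igf1r* and *Lgals3*. The shares were 22.3% and 25.6% of all genes past 4-fold higher and lower, and 15.4% and 14.3% of all 8852 genes. *Clca3a2* ranged from 18 to 27.4 CPM in the other pregnant mice and was at 4741 and 395 CPM in v53L and vBrL.

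The interferon and class II lists had unlike ratios in the 3 genotypes, and the difference between genotypes was not tested. The GTPase list had log2 ratios of 4.69 in the double mutant, 2.65 in p53L, and -0.97 and -0.04 in the pBrL mice. Single cells held 59% of the list's reads in vBrL and 64.4% in 1 pBrL mouse. Without the cell with the most list reads in each mouse, a setting chosen after seeing the data, the ratios were 4.87, 2.35, 0.20 and -0.24. The vBrL sum was 1234 CPM, near the p53L sum of 1403 CPM, so the virgin mice themselves ranged from 130 CPM in vBr53L and 223 CPM in v53L upward. Of the 14 GTPases, 6 showed no overlap between stages in the other 5 mice, with the pregnant mice higher, and 7 were at least 4-fold higher in p53L than in v53L. Over all 8852 genes these shares were 15.4% and 10%. *Igtp* and *Ifi47* lay higher in all 3 other pregnant mice than in both virgin mice, *Igtp* at 48.3 to 99.2 against 17.8 and 27.1 CPM. *Iigp1* did not, at 696 CPM in vBrL. The other interferon-stimulated genes had list ratios of 2.14, 0.43, -0.49 and 0.49 in the same order. Single cells held 46.7% of the list's reads in p53L and 49.4% in 1 pBrL mouse. Of the genes of this list past 4-fold, 0 showed no overlap in the same direction in the other mice, and 6 were also at least 4-fold higher in p53L than in v53L. The class II list had log2 ratios of 5.30, -1.11, -4.00 and -5.08, and the last 2 rest on the immune marked cell of vBrL. Without the immune marked cells, the class II sums of the 7 mice were 1018 CPM in pBr53L and 28.6 to 102.8 CPM in the other 6. Mitosis list ratios were 1.27, 5.79, 0.21 and 0.80. The virgin sums ranged widely, at 588 CPM in vBr53L, 13.7 CPM in v53L and 1203 CPM in vBrL. The pregnant sums were 1417 CPM in pBr53L, 812 CPM in p53L, and 1394 and 2094 CPM in the pBrL mice.

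**Figure D5:**
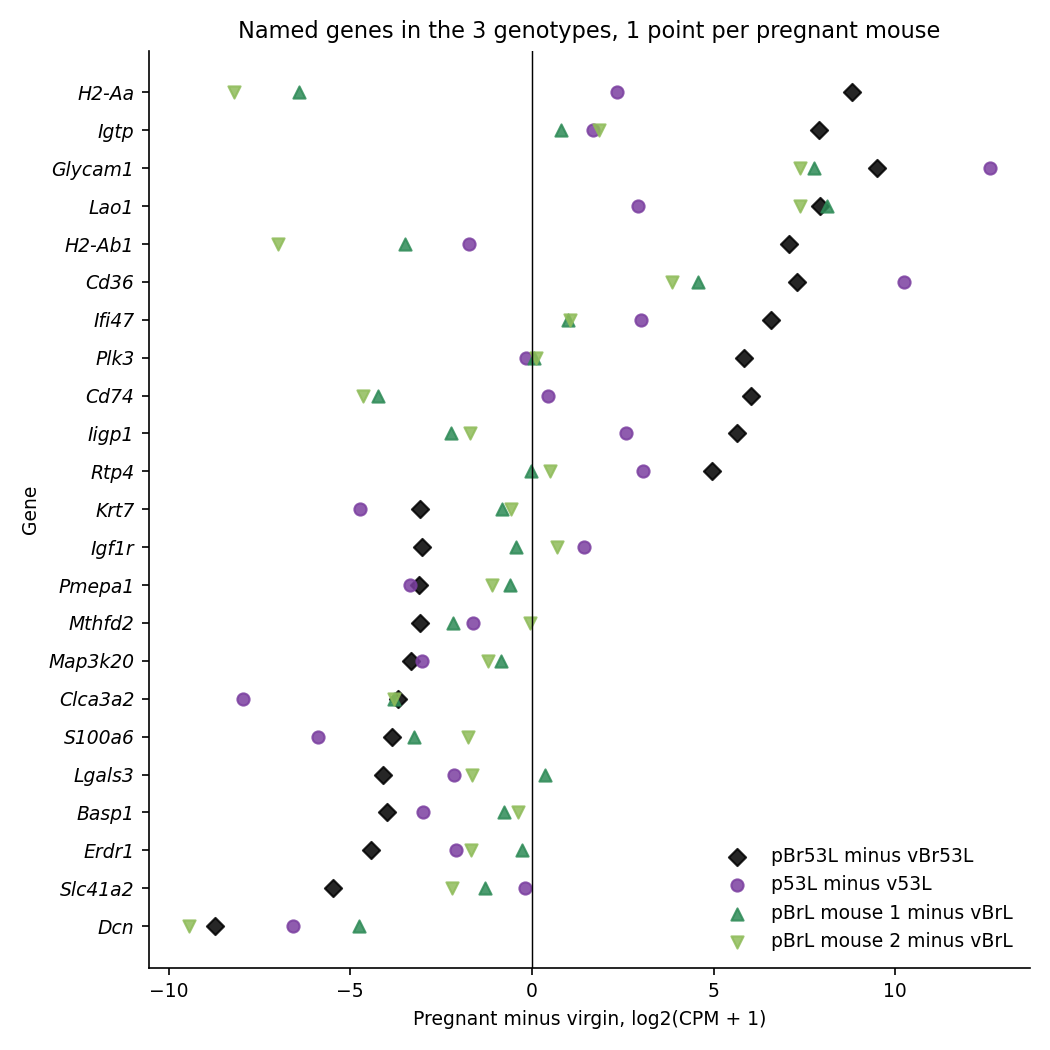
For each of 23 leading genes the x axis gives the pregnant minus virgin difference in log2(CPM + 1), with 1 symbol per pregnant mouse: the double mutant (diamonds), p53L against v53L (circles) and the 2 pBrL mice against vBrL (triangles). *Glycam1*, *Cd36* and *Lao1* lie right of 0 for all 4 pregnant mice, and *H2-Aa* and *Cd74* lie left of 0 for both pBrL mice, which share 1 virgin mouse. In that virgin mouse 1 immune marked cell, included here, held 97.4% of the reads of the class II list.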

How the data were processed

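Single luminal cells were sequenced as full-length cDNA without molecular identifiers. The deposited table holds raw read counts of 21004 genes in 477 cells, made by the authors. The submitters' processing notes name Trim Galore 0.4.1, STAR 2.5.3a, Subread 1.5.3 and mm10, and the annotation and strand setting are not given in the sources used here. Groups followed the source labels. The members, gene lists and tests were chosen with earlier results of these data known.

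Counts were summed per mouse and divided by all reads of the group (CPM). Genes of at least 10 CPM in either group were compared, with 4-fold as the limit and a floor of 3 reads for a sum of 0. For shares of cells, 100000 reads were drawn from every cell, and 0 cells were too shallow for this. Named were the 12 genes with the largest ratio per direction that had at least 50 CPM and a read in at least 50% of cells of the higher group, and stayed past 4-fold without its highest cell, gene models left out. Members of 31 lists (565 genes) could be named too. The other 5 luminal mice, 1 sum per mouse, were fitted for stage with edgeR 4.0.16 (quasi-likelihood, Benjamini-Hochberg) and, as an alternative, DESeq2 1.42.0 in R 4.3.3. The scripts were tested on simulated data. Other computations used Python 3.11.15, numpy 2.4.6, pandas 2.3.3 and scipy 1.17.1. Promoters came from RefSeq (GRCm38.p6). Alternatives covered scaling, thinning, minimum CPM, fold and cells left out. Some results are not reported here.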

Additional observations from a re-analysis of the deposited data

Results flagged for a closer look

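The summed immune cell markers were highest in pBr53L among the 4 pregnant luminal mice, at 334 CPM against 9.94 to 15.7 CPM, and the gap to the next mouse was 0.876 of the whole range on the scale of log2(CPM + 1). One pBr53L cell carried 10 of the 14 markers, and without it the sum was 18.3 CPM. The list of ER folding and secretion genes was highest in p53L, at 8969 CPM, with a gap of 0.870 of the range on the same scale, and the other pregnant mice lay between 6856 and 7100 CPM. Of 28 groups looked at in this way 2 stood out, and chance gives about 5% of them.

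For 2 lists flagged here, the difference between stages went in opposite directions in the double mutant and the pBrL mice. They were not the only lists with opposite signs. The interferon-inducible GTPases had 4.69 against -0.97 and -0.04, and MHC class I presentation 0.43 against -0.23 and -0.44. The pregnant minus virgin log2 difference of the immune cell markers was 2.32 in the double mutant and -3.44 and -2.83 in the 2 pBrL mice. Single cells held most of these reads. Without the cell with the most marker reads in each mouse, a setting chosen after seeing the data, the sums were 18.3 CPM in pBr53L, 17.3 CPM in vBr53L, 9.29 CPM in vBrL, and 5.80 and 5.38 CPM in the pBrL mice. The log2 differences were then 0.08, -0.60 and -0.69. That of the MHC class II list was 5.30 in the double mutant and -4.00 and -5.08 in the pBrL mice. These differences between genotypes were not tested. Both pBrL values share the vBrL mouse, which held 1 immune marked cell, and without that cell its class II sum was 28.6 CPM, against 66.2 and 30.8 CPM in the pBrL mice. The pBr53L sum without its own immune marked cell was 1018 CPM.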

How the results depend on the processing

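The counts of genes past the limit depended on the settings. They were 3353 higher and 2425 lower with no minimum CPM, 196 and 201 at 50 CPM or more, 563 and 370 at 8-fold, and 1764 and 1804 at 2-fold. Without the highest cell of each group 399 genes were lower, and without the cells with 4 or more hormone sensing markers 1425 were higher. Without the cells with 5 or more mitosis genes, an alternative chosen after seeing the data, 1137 were lower. Totals without caseins and *Wap* shifted the median of all genes by 0.15 on the log2 scale, and 63.2% of the genes past 4-fold were then higher, against 56.7%. Without the highest cells that share was 71.1%. Of 297 list medians under the alternatives, 277 stayed within 1.5-fold of their value and 20 moved further. Of 264 log2 ratios of leading genes 124 moved past their counting interval and 0 changed sign, and of 48 shares of cells 31 moved without thinning. The hormone sensing median, -1.74, was 0.44 without the marked cells, which were chosen by the same genes, -3.003 without the highest cells and -4.23 without the cells with mitosis genes, and the DNA replication median 0.16 without the cells with mitosis genes.

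The stage test over the other 5 mice called 865 genes with DESeq2, 213 with no low-count filter and 2 with all 7 luminal mice. Leaving out 1 mouse gave 9 to 781 calls, 9 and 25 without either pBrL mouse, 20 without p53L, 307 without v53L and 781 without vBrL, where a lone virgin mouse is assumed to vary like the pregnant ones. The cause was not tested. No paired analysis was possible because each group of the comparison was 1 mouse and the replicate numbers only name cells. Depth limits genes near 10 CPM in single cells.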
